A study of Mus musculus with 32 samples.

Results

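The genes of cholesterol and fatty acid synthesis examined here were 31 mouse genes, chosen by name from a list drawn up with earlier results of these data known. All 31 were present among the 26331 named genes of the count tables. They comprised 8 genes of the mevalonate steps, 10 of the sterol steps, 4 regulators or sterol carriers, 3 of fatty acid synthesis and 6 of fatty acid elongation and desaturation. Each of the 31 passed the filter on low counts in every fit, and single-library counts of the members ran from 71 (Ebp) to 66270 (Scd2).

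RNA was sequenced from the forebrain of mouse embryos, the cortex at embryonic day E15.5 and the dorsal telencephalon at E12.5. On the C57BL/6 background, labelled Kat6b-/- knockout (KO) and wild-type (WT) embryos gave 5 libraries each at E15.5 and 3 each at E12.5. On a mixed FVBxBALB/c background, Tg(Kat6b) transgenic (Tg) and WT embryos gave 4 libraries each at both ages. Kat6b encodes a histone acetyltransferase, and the study asked what its loss or its excess does to RNA levels in the developing forebrain. The transgene was kept on the mixed background because such mice did not survive on an inbred one, and all FVBxBALB/c libraries were sequenced in batch 1 and all C57BL/6 libraries in batch 2. Genotype was therefore compared within a background only. The dissected tissue changed together with age, so age and tissue cannot be told apart.

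Cells make cholesterol from acetyl-CoA through mevalonate, isoprenoid diphosphates, squalene and lanosterol, and they make fatty acids from acetyl-CoA through malonyl-CoA. The transcription factors SREBP2 and SREBP1 (genes Srebf2 and Srebf1) raise the transcription of both pathways when membrane sterol is low, and INSIG1 holds them in the endoplasmic reticulum when sterol is high. Once formed, the blood-brain barrier keeps plasma cholesterol out of the brain, which then relies on its own synthesis for membranes such as those of growing neurites.

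The promoters of 4 members are shown, Hmgcs1 because it carries a sterol regulatory element and Idi1, Hsd17b7 and Msmo1 as examples, picked after the matches were seen, that hold more than 1 CCAAT and fell with age in at least 3 of 4 groups. SREBP proteins bind sterol regulatory elements, often beside NF-Y, which binds CCAAT. Each line gives the 250 bases before a start site of the gene listed in RefSeq on GRCm38.p6. The bases run 5′ to 3′ on the strand of the gene. Hmgcs1 lies at chr13:119690101-119690350 on the plus strand, Idi1 at chr13:8885356-8885605 on the plus strand, Hsd17b7 at chr1:169969206-169969455 on the minus strand and Msmo1 at chr8:64733579-64733828 on the minus strand. Capitals mark CCAAT or its reverse complement ATTGG, and in Hmgcs1 also the sterol regulatory element.
Hmgcs1: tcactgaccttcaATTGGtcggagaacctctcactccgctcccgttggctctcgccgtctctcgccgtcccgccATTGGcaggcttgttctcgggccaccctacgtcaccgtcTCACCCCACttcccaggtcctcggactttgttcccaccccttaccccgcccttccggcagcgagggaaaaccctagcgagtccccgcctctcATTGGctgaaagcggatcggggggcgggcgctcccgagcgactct
Idi1: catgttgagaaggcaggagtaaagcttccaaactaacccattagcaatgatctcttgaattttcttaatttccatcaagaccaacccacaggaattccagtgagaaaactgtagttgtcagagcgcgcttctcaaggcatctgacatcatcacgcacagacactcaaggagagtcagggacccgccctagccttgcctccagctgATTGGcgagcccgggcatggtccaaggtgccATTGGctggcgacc
Hsd17b7: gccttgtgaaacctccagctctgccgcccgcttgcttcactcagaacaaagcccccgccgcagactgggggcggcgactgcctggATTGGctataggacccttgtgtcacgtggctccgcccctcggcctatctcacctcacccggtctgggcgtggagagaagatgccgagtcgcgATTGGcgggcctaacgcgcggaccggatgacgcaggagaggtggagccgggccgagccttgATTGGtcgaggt
Msmo1: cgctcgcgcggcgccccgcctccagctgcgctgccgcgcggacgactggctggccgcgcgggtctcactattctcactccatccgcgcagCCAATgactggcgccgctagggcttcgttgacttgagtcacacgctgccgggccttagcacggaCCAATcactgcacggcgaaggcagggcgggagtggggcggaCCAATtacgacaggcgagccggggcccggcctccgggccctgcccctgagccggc
The sterol regulatory element searched, TCACNCCAC on either strand, was found in Hmgcs1 alone among the 24 members with a sequence, 137 bases before the start, as TCACCCCAC. It was present in 1.225% of the 27025 genes with such a sequence. CCAAT, on either strand, was found in 19 of the 24 members (79.167%) and in 37.495% of all genes. Both motifs overlapped in 2 of all 32851 windows searched, and in Hmgcs1 they did not overlap. Of the other members with a sequence that fell with age in at least 3 groups, Elovl5 held 2 copies of CCAAT and Insig1 held 1. By start site, Dhcr7 held 0 or 2 and Srebf1 held 0 or 1. Of members with a sequence called in no age comparison, Mvk held 5, Hmgcs1 and Ggps1 3 each, and Nsdhl and Ebp 2 each. Sc5d and Srebf2 held 1 each, and Elovl6 and Fads2 held 0. Of those called higher with age in any group, Fasn held 3, Mvd 2 and Acaca 0, and Pmvk held 0 or 1 by start site. Copies lay 45 and 14 bases before the start of Idi1, 165, 73 and 12 bases before that of Hsd17b7, and 160, 96 and 55 bases before that of Msmo1. The annotated gene of Hsd17b7 reaches to chr1:169969242, so the last bases of its window, with the copy nearest the start, lie within it. Windows of Acaca, Fasn and Srebf1, and some of Dhcr7 and Pmvk, lie inside the annotated gene. Those of Ggps1, Lss and Mvk reach into it. All these matches are letters in a window and were not set against binding data.

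Per kilobase of gene, Scd2, a stearoyl-CoA desaturase that makes monounsaturated fatty acids, had the highest level of the members in 6 of the 8 groups. Levels are in CPM, counts scaled to a common library size. Scd2 averaged 218 ± 20.1 CPM per kb in KO and 225 ± 14.3 CPM per kb in WT cortex of C57BL/6 (SD, n = 5 each). In the cortex of FVBxBALB/c, Hmgcs1, which encodes the synthase that makes HMG-CoA for the mevalonate pathway, stood above it. Hmgcs1 averaged 223 ± 13.0 CPM per kb in Tg and 236 ± 15.6 CPM per kb in WT there (SD, n = 4 each), and Scd2 183 ± 6.91 CPM per kb in Tg and 179.9 ± 11.4 CPM per kb in WT. The lowest level belonged to Idi1, the isopentenyl diphosphate isomerase, in all 4 cortex groups, at 3.79, 3.72, 3.70 and 4.06 CPM per kb in KO and WT of C57BL/6 and in Tg and WT of FVBxBALB/c. At E12.5 the lowest was Ebp, a sterol isomerase, in 3 groups and Hsd17b7, a ketosteroid reductase of the sterol steps, in the KO group. Within groups the median coefficient of variation of the members was 6.49% (KO, E15.5) to 10.4% (WT, C57BL/6, E12.5). The highest was 29.9% (Hsd17b7 in Tg, E15.5), followed by 25.4% and 23.2% (Scd1 in WT of C57BL/6 and of FVBxBALB/c, E12.5).

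**Figure D1:**
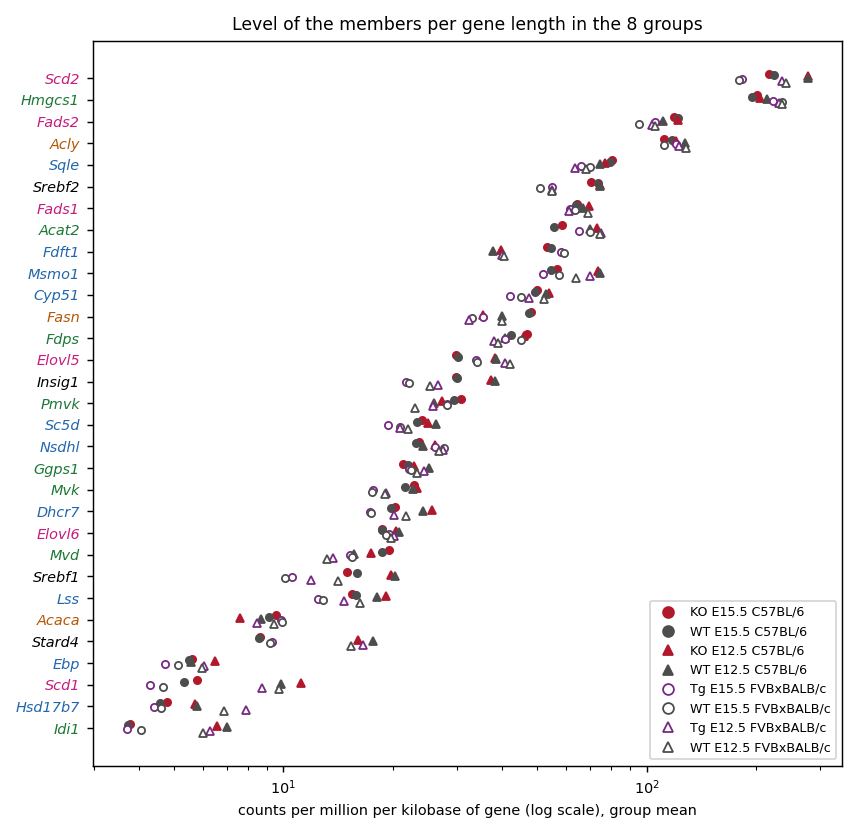
Mean level of each member in the 8 groups, in CPM per kilobase of gene on a log axis, ordered by WT cortex of C57BL/6. Circles are E15.5 and triangles E12.5, filled for C57BL/6 and open for FVBxBALB/c, and the members range from Idi1 at 3.72 to Scd2 at 225 CPM per kb in the group that sets the order.

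Total counts over named genes ran from 10383066 to 49508669 per library, with the FVBxBALB/c cortex shallowest. Kat6b averaged 659 ± 77.3 CPM in Tg and 183 ± 31.7 CPM in WT at E15.5, and 547 ± 54.7 CPM in Tg and 178 ± 20.2 CPM in WT at E12.5 (SD, n = 4 each). In labelled KO it averaged 174.5 ± 15.1 CPM against 171 ± 17.8 CPM in WT at E15.5 (SD, n = 5 each), and 154 ± 34.8 CPM against 170.4 ± 20.7 CPM in WT at E12.5 (SD, n = 3 each). Counts over the whole gene do not tell whether a deleted part is missing, so the KO label was not checked by them. The 2 C57BL/6 E15.5 libraries with replicate number 5 had a column heading naming an E12 sample, and the label of the KO one gives dorsal telencephalon. Both were used as E15.5 and left out in an alternative. With these 2 included, 10 neuron markers summed at E15.5 to 7844 to 9007 CPM in KO and 8215 to 8530 CPM in WT. At E12.5 the sums were 2880 to 4562 CPM in KO and 2731 to 4068 CPM in WT of C57BL/6. KO E15.5 replicates 3 and 4 and WT E15.5 replicate 3 stood apart in 10 meningeal and mesenchymal markers, with median deviations of 1.05, 1.24 and 0.84 on the log2(CPM + 1) scale from the mean of that age and background, where the other E15.5 C57BL/6 libraries lay at -0.57 to -0.23. The same 2 KO libraries were lowest in dorsal telencephalon markers (-0.39 and -0.43, others -0.06 to 0.21) and in proliferation markers (-0.30 and -0.28, others -0.03 to 0.19).

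No member was called different between labelled KO and WT at either age. By edgeR's quasi-likelihood test with Benjamini-Hochberg adjustment over all 16118 genes tested, 0 of 31 members were called at an adjusted p below 0.05 at E15.5, where 0% of all genes were called. At E12.5 again 0 of 31 were called, against 0.00620% of all genes. DESeq2 also called 0 members at both ages. At an unadjusted p under 0.05 there were 0 members at E15.5, beside 2.83% of all genes, and 1 at E12.5, beside 5.22%. The median log2 fold change of the members was 0.03 at E15.5, beside 0.01 over all genes, and -0.0042 at E12.5, beside -0.0129. Above 0 were 22 of 31 members at E15.5, beside 53% of all genes, and 15 of 31 at E12.5, beside 46.9%. Without KO replicates 3 and 4 the members had a median of -0.01 at E15.5. The 95% intervals of all 31 members lay within 1.5-fold in either direction at both ages.

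At E15.5 the smallest p belonged to Fdps, the farnesyl diphosphate synthase at the branch to sterols and prenylation. Fdps had 59.1, 73.1, 67.4, 75.3 and 66.9 CPM in KO against 46.2, 56.03, 65.3, 72.6 and 68.1 CPM in WT. The groups overlapped, and the highest and lowest of the 10 libraries were 75.3 CPM in KO and 46.2 CPM in WT. Its log2 fold change was 0.15 (adjusted p = 1, SE 0.12). Acly, the ATP citrate lyase that supplies cytosolic acetyl-CoA, had 521, 456, 498, 497 and 499 CPM in KO against 496, 530.1, 526, 551 and 494 CPM in WT, a log2 fold change of -0.06 (adjusted p = 1, SE 0.06). For Acat2, the thiolase that joins acetyl-CoA units, the values were 114, 119, 131, 126 and 118 CPM in KO and 95.3, 115, 124, 127 and 114 CPM in WT, with a log2 fold change of 0.09 (adjusted p = 1, SE 0.08). In both genes the groups overlapped, as they did for every member at this age, where 0.831% of all genes did not overlap. Without KO replicates 3 and 4 the log2 fold changes were 0.10 for Fdps, -0.08 for Acly and 0.02 for Acat2 (adjusted p = 1 for each). Fdps reads are uncertain, since 77.4% of its exon bases lie in the exons of Gm43738 on the same strand in the GENCODE annotation of this build.

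At E12.5 Acaca, the acetyl-CoA carboxylase that commits carbon to fatty acids, had 74.2, 67.6 and 64.3 CPM in KO against 84.7, 71.7 and 78.95 CPM in WT. Its groups overlapped, with 2 of 3 KO libraries below all WT libraries. Its log2 fold change was -0.20 (adjusted p = 0.881, SE 0.09). Ggps1, the geranylgeranyl diphosphate synthase, had 51.8, 53.7 and 57.2 CPM in KO against 62.7, 61.6 and 54.4 CPM in WT, overlapping, with a log2 fold change of -0.15 (adjusted p = 0.881, SE 0.08). Mvd, the decarboxylase that ends the mevalonate steps, had 33.1, 32.4 and 32.2 CPM in KO against 28.7, 28.3 and 30.6 CPM in WT. Every KO library of Mvd lay above every WT library, the 1 member without overlap where 7% of all genes had none, and its log2 fold change was 0.15 (adjusted p = 0.881, SE 0.09). At the same age the summed level of 8 dorsal telencephalon markers was 1277 to 1757 CPM in KO and 1823 to 1928 CPM in WT, and 8 of 8 fold changes lay below 0. Meningeal and mesenchymal markers summed to 325.2 to 2091 CPM in KO and 411.2 to 1301 CPM in WT, with 10 of 10 above 0, and erythroid markers to 1365 to 3793 CPM in KO and 2123 to 3929 CPM in WT, with 9 of 9 below 0. Of these markers 0 were called. KO E12.5 replicates 3 and 4 lay apart from each other in the meningeal markers, at median deviations of 1.15 and -1.04. The part of these markers in the differences was not tested.

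The difference of the KO effect between the ages was called for 0 of 31 members by edgeR, beside 0% of all genes. DESeq2 also called 0 members, beside 0.0038% of all genes higher and 0% lower. By edgeR 1 member lay at an unadjusted p under 0.05, beside 2.72% of all genes. That member was Acaca, with a difference of log2 fold changes, E15.5 minus E12.5, of 0.27 (adjusted p = 1, SE 0.11). Fads2 and Sc5d followed, at -0.15 (adjusted p = 1, SE 0.10) and 0.14 (adjusted p = 1, SE 0.11). Without KO E15.5 replicates 3 and 4 these differences were 0.22, -0.24 and 0.15 (adjusted p = 1 for each), and the median over the members was -0.04, against 0.01 with them. Ebp was the 1 member whose 95% interval of this difference reached past 1.5-fold.

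**Figure D2:**
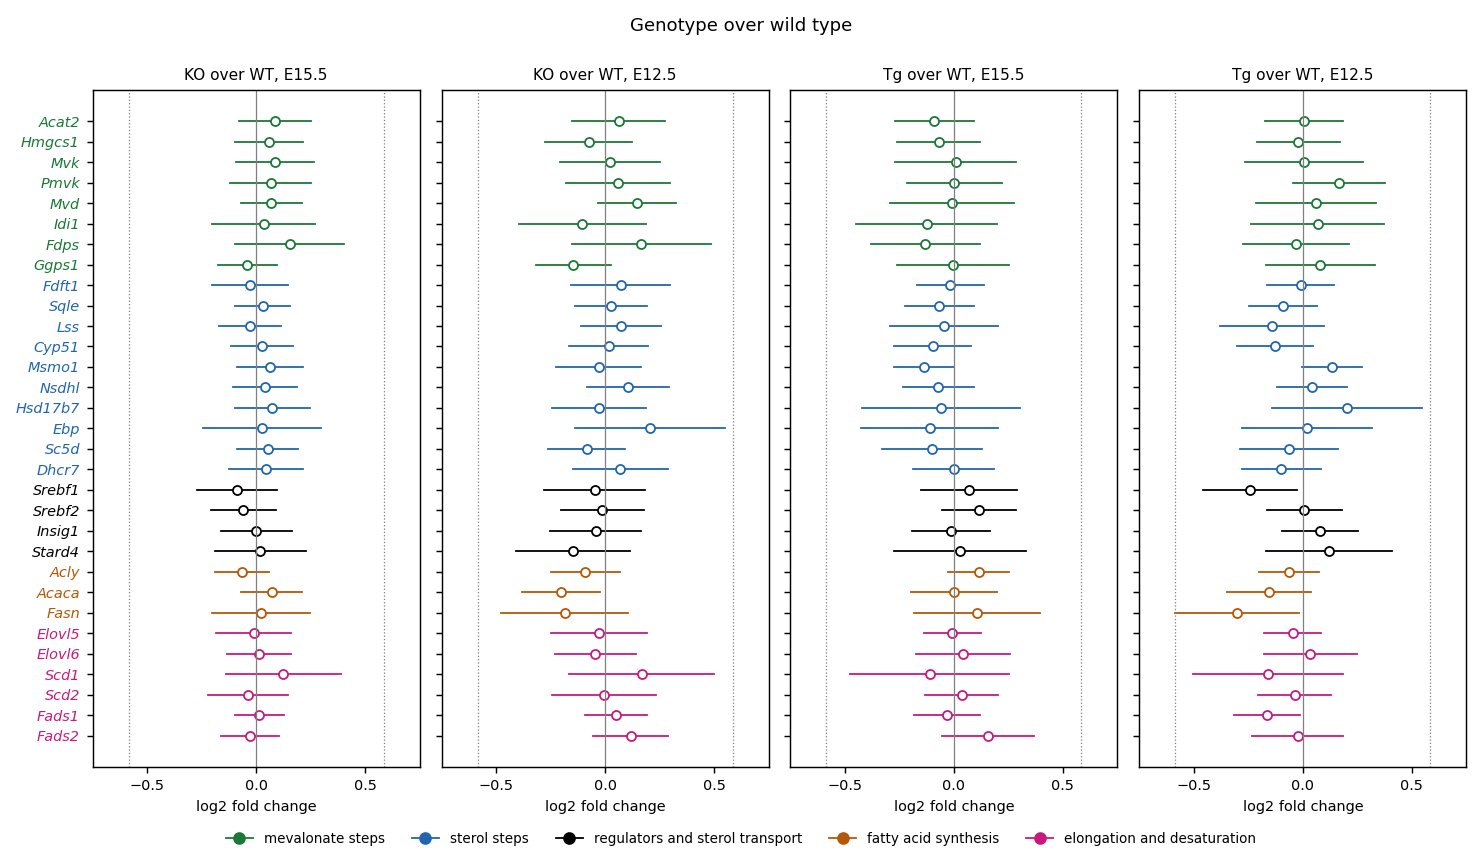
Log2 fold change of each member, KO over WT and Tg over WT at each age, with 95% intervals and dotted lines at 1.5-fold. All points are open because 0 of 31 members were called in any of the 4 comparisons, and the interval of Fasn in Tg over WT at E12.5 alone crosses a dotted line.

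The Tg comparison gave the same count. At E15.5, 0 of 31 members were called between Tg and WT by edgeR's quasi-likelihood test with Benjamini-Hochberg adjustment, beside 0.0129% of the 15556 genes tested, and 0 at an unadjusted p under 0.05, beside 2.22%. At E12.5, 0 of 31 were called, beside 0.0129% of all genes, and 3 (9.68%) lay at an unadjusted p under 0.05, beside 6.68% of all genes. DESeq2 called 0 at both ages. The median log2 fold change was -0.02 at E15.5, beside 0.0028 over all genes, and -0.02 at E12.5, beside -0.01, with 10 and 14 of 31 members above 0 where 51% and 47.4% of all genes were.

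The 3 members at E12.5 were Srebf1, Fads1 and Fasn. Srebf1 had 51.98, 46.8, 54.5 and 51.8 CPM in Tg against 56.8, 60.99, 68.1 and 57.2 CPM in WT. All Tg libraries of Srebf1 lay below all WT libraries, the 1 member without overlap where 2.81% of all genes had none, and the log2 fold change was -0.24 (adjusted p = 0.724, SE 0.10). Fads1, a desaturase of polyunsaturated fatty acids, had 235, 195, 211 and 207 CPM in Tg against 249.7, 237, 253 and 212 CPM in WT, with a log2 fold change of -0.16 (adjusted p = 0.743, SE 0.07). Fasn, the fatty acid synthase, had 399.5, 287, 315 and 287 CPM in Tg against 417, 372, 487 and 318 CPM in WT. Both genes overlapped between the groups, and Fasn varied most, from 287 CPM in a Tg to 487 CPM in a WT library. Its log2 fold change was -0.30 (adjusted p = 0.743, SE 0.14), and its 95% interval was the 1 interval of the members at either age to reach past 1.5-fold. Among markers of other cell types at this age, 8 of endothelial cells and pericytes summed to 194.5 to 219.2 CPM in Tg and 218.8 to 306.8 CPM in WT. The sums of 10 meningeal and mesenchymal markers were 229 to 1226 CPM in Tg and 329.8 to 1883 CPM in WT, and those of 9 erythroid markers 1473 to 4535 CPM in Tg and 2410 to 9776 CPM in WT. By fold change 8 of 8 endothelial and pericyte, 8 of 10 meningeal and 8 of 9 erythroid markers lay below 0, and 0 of them were called. WT E12.5 replicate 4 stood apart, with median deviations of 1.58 in the meningeal and 1.56 in the erythroid markers on the log2(CPM + 1) scale. Without it the log2 fold change was -0.27 for Srebf1 (adjusted p = 0.305), -0.21 for Fads1 (adjusted p = 0.257) and -0.40 for Fasn (adjusted p = 0.257). The part of these markers in the differences was not tested.

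At E15.5 the order was another. Msmo1, the methylsterol monooxygenase of the sterol steps, had 96.5, 100.1, 93.1 and 89.01 CPM in Tg against 104, 100.3, 109 and 106 CPM in WT. Acly had 523, 539, 526 and 542 CPM in Tg against 517, 493, 469.5 and 499.97 CPM in WT. Msmo1 lay lower and Acly higher in every Tg library, and these were the members without overlap, where 2.52% of all genes had none. On the log2 scale the change was -0.14 (adjusted p = 1, SE 0.07) for Msmo1 and 0.11 (adjusted p = 1, SE 0.07) for Acly. Fads2, another desaturase of polyunsaturated fatty acids, had 171, 165, 150.4 and 152 CPM in Tg against 131, 141, 157 and 147 CPM in WT, overlapping, with a log2 fold change of 0.16 (adjusted p = 1, SE 0.10). The change of the Tg effect between the ages was called for 0 of 31 members by edgeR, beside 0% of all genes. DESeq2 also called 0 members, beside 0.0038% of all genes higher and 0% lower. By edgeR 3 members lay at an unadjusted p under 0.05, beside 4.04% of all genes. Those were, as E15.5 minus E12.5, Msmo1 with -0.27 (adjusted p = 1, SE 0.09), Srebf1 with 0.31 (adjusted p = 1, SE 0.15) and Fasn with 0.41 (adjusted p = 1, SE 0.19). The 95% interval of that change passed 1.5-fold for Srebf1, Fasn, Hsd17b7 and Idi1.

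Between E15.5 cortex and E12.5 dorsal telencephalon the members did not move together. Stard4, Idi1, Hsd17b7, Dhcr7, Scd1, Scd2 and Elovl5 fell in all 4 genotype groups, Fdft1 rose in all 4, and 12 members were called in none. How many of all genes were called in all 4 or in none was not counted, so these numbers have no share beside them. In C57BL/6, 12 members were lower (38.7%) and 4 higher (12.9%) in KO, where 27.0% of all genes were lower and 29.4% higher. In C57BL/6 WT 11 members were lower (35.5%) and 2 higher (6.45%), beside 28.2% and 28.6% of all genes. In FVBxBALB/c, 9 members were lower (29.0%) and 1 higher (3.23%) in Tg, beside 22.5% lower and 23.8% higher of all genes. The WT of that background had 11 lower (35.5%) and 2 higher (6.45%), beside 25.1% of all genes in each direction. In each of the 4 the share of members lower stood above that of all genes and the share higher below it, differences that were not tested. In KO this rested on KO E12.5 replicate 1, without which 16.1% of members were lower, beside 22.7% of all genes. In the other alternatives run for these 4 comparisons the lower share stayed above, and the higher share below, that of all genes. Of those, DESeq2 and the fit with no filter also counted genes that the filter removes in the share of all genes.

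The median log2 fold change of the members with age was -0.08 in KO, -0.12 in C57BL/6 WT, -0.11 in Tg and -0.15 in FVBxBALB/c WT, where all genes lay at -0.01, -0.02, -0.03 and -0.03. Fold changes lay below 0 in all 4 for 17 members and above 0 in all 4 for 6, and 0 members were called in both directions. The shares of all genes below or above 0 in all 4 were not counted. The 4 comparisons share no library, but they are not 4 independent repeats. KO and WT of C57BL/6 came from the same litters at each age, and both comparisons of a background came from the same fit. Groups did not overlap between the ages for 17, 14, 11 and 14 members in KO, C57BL/6 WT, Tg and FVBxBALB/c WT, and for 54.6%, 51.8%, 43.2% and 43.1% of all genes.

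The make-up of the tissue moved with age as well. Summed levels of 9 radial glia markers were 1804 to 1976 CPM at E15.5 against 2572 to 3354 CPM at E12.5 in C57BL/6, and 2260 to 2559 CPM against 3086 to 3462 CPM in FVBxBALB/c. The radial glia markers did not all fall. In KO 6 were called lower and 3 higher, and in C57BL/6 WT, Tg and FVBxBALB/c WT 6 lower and 2 higher each. Over all groups, 8 proliferation markers summed to 862 to 1614 CPM at E15.5 against 1798 to 3193 CPM at E12.5, and 10 neuron markers to 7844 to 9032 CPM against 2695 to 5304 CPM. Meningeal and mesenchymal markers (10 genes) summed to 34.6 to 198 CPM at E15.5 against 229 to 2091 CPM at E12.5. Erythroid markers (9 of 10 listed genes were in the files) summed to 169.8 to 490.1 CPM against 1365 to 9776 CPM. Of these erythroid genes 8, 8, 5 and 6 were called lower in KO, C57BL/6 WT, Tg and FVBxBALB/c WT, and 1, 1, 1 and 0 higher. Marker genes at 0 in all libraries of a group numbered 0. The part of these shifts in the age differences was not tested, and in bulk tissue fewer cells of a type and less RNA per cell cannot be told apart.

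**Figure D3:**
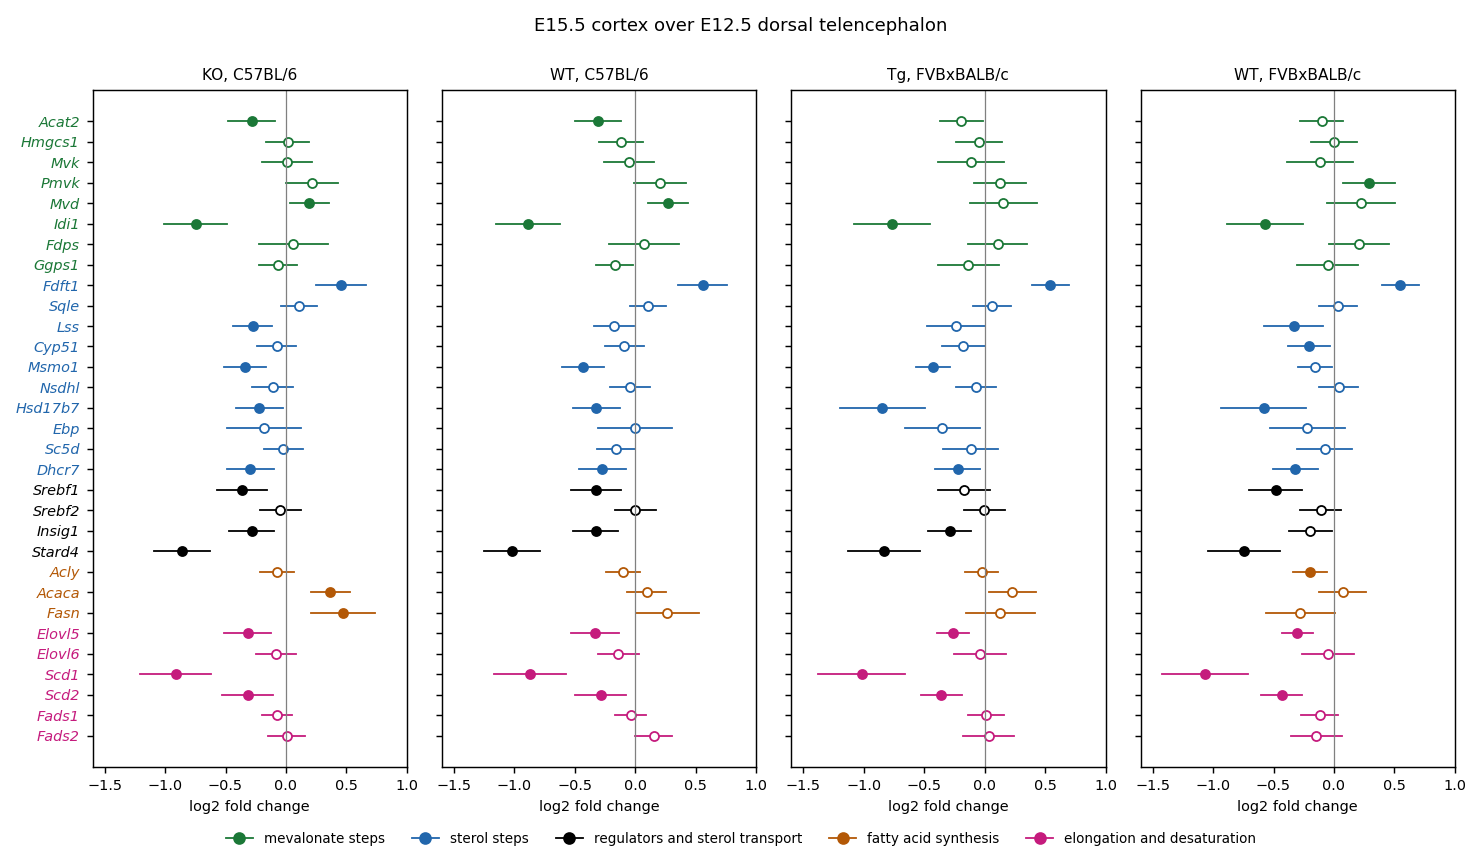
Log2 fold change of each member at E15.5 over E12.5 in KO and WT of C57BL/6 and in Tg and WT of FVBxBALB/c, with 95% intervals. Filled points passed an adjusted p below 0.05, colours give the role, and Scd1 runs from -1.07 to -0.87 and Stard4 from -1.02 to -0.74 across the 4 panels.

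Among the mevalonate steps, Idi1 fell in all 4 groups. It had 9.49, 10.2, 10.9, 11.2 and 12.47 CPM at E15.5 against 21.5, 17.98 and 16.8 CPM at E12.5 in KO, and 11.8, 10.6, 9.30, 9.34 and 12.3 CPM against 22.4, 19.2 and 18.4 CPM in C57BL/6 WT. No E15.5 library reached the lowest E12.5 library in either genotype. This gave log2 fold changes of -0.75 (adjusted p = 7.04e-05, SE 0.12) in KO and -0.89 (adjusted p = 1.38e-05, SE 0.12) in WT by edgeR's quasi-likelihood test with Benjamini-Hochberg adjustment, as for every fold change with age given here. In FVBxBALB/c, Idi1 had 9.44, 10.2, 11.01 and 11.8 CPM at E15.5 against 15.9, 22.2, 17.6 and 16.6 CPM at E12.5 in Tg, and 13.7, 12.04, 8.72 and 12.1 CPM against 16.3, 19.3, 14.9 and 18.6 CPM in WT. Again the ages did not overlap, and the fold changes were -0.76 (adjusted p = 0.000519, SE 0.15) in Tg and -0.57 (adjusted p = 0.00414, SE 0.15) in WT. These calls held under every alternative run. The reads of Idi1 can be shared with others: 17.1% of its 66-base transcript stretches occur in Gm13502 or Gm35570, and 10.7% of its exon bases overlap Gm48574 on the opposite strand.

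Acat2, at the entry of the pathway, fell in C57BL/6. It had 114, 119, 131, 126 and 118 CPM at E15.5 against 164, 148 and 144 CPM at E12.5 in KO, and 95.3, 115, 124, 127 and 114 CPM against 131, 142 and 161 CPM in WT. The ages did not overlap, and the log2 fold change was -0.28 (adjusted p = 0.0126, SE 0.09) in KO and -0.31 (adjusted p = 0.00773, SE 0.09) in WT. The KO call was lost without KO E12.5 replicate 1 (adjusted p = 0.0747) and the WT call without WT E12.5 replicate 4 (adjusted p = 0.0649). In FVBxBALB/c it was not called, at -0.20 (adjusted p = 0.0687, SE 0.08) in Tg and -0.10 (adjusted p = 0.342, SE 0.08) in WT. Acat2 shares 35.8% of its 66-base stretches with Acat3.

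Mvd went the other way in C57BL/6, with 36.2, 35.4, 36.8, 39.5 and 33.7 CPM at E15.5 against 33.1, 32.4 and 32.2 CPM at E12.5 in KO, and 31.05, 33.6, 38.2, 34.02 and 36.8 CPM against 28.7, 28.3 and 30.6 CPM in WT. All E15.5 libraries lay above all E12.5 libraries. Log2 fold changes were 0.19 (adjusted p = 0.0392, SE 0.08) in KO, a call kept under 4 of 16 alternatives, and 0.27 (adjusted p = 0.00645, SE 0.08) in WT, kept under 14 of 15 and lost with all 32 libraries in the fit (adjusted p = 0.0559). Pmvk, the phosphomevalonate kinase before it, rose in FVBxBALB/c WT only as far as calls go, with 36.7, 37.2, 52.1 and 44.4 CPM at E15.5 against 36.6, 33.2, 34.7 and 34.6 CPM at E12.5. Replicates 1 and 2 at E15.5 lay just above the E12.5 libraries, and replicates 3 and 4 well above. The fold change was 0.29 (adjusted p = 0.0247, SE 0.10), and it was 0.18 (adjusted p = 0.123) without WT E15.5 replicate 3. The call was also lost without WT E12.5 replicate 2, without WT E15.5 replicate 4 and with the groups compared alone in the fit. Hmgcs1, Mvk (mevalonate kinase), Fdps and Ggps1 were called in none of the 4 comparisons.

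Of the sterol steps, Fdft1, the squalene synthase that commits farnesyl diphosphate to sterols, was the member counted higher in all 4. It had 156, 138, 149, 161 and 158 CPM at E15.5 against 111, 111 and 119.6 CPM at E12.5 in KO, and 136, 145, 171, 167 and 162 CPM against 88.3, 114 and 121 CPM in C57BL/6 WT. The FVBxBALB/c libraries had 171, 161, 166 and 169 CPM against 109, 120.3, 117 and 112 CPM in Tg, and 161, 149.5, 179 and 188 CPM against 124, 108, 115 and 116 CPM in WT. E15.5 and E12.5 were apart in every group. The log2 fold change was 0.46 (adjusted p = 0.000717, SE 0.10) in KO, 0.56 (adjusted p = 0.000127, SE 0.10) in C57BL/6 WT, 0.54 (adjusted p = 1.63e-05, SE 0.07) in Tg and 0.55 (adjusted p = 1.15e-05, SE 0.07) in FVBxBALB/c WT, and all alternatives kept these calls. However, 774 of its 3698 exon bases (20.9%) overlap Ctsb, the gene of the protease cathepsin B, on the opposite strand in GENCODE. Ctsb rose alike, with fold changes of 0.55 in KO, 0.63 in C57BL/6 WT, 0.64 in Tg and 0.54 in FVBxBALB/c WT. Its level was 188 ± 7.36 CPM at E15.5 against 132 ± 16.3 CPM at E12.5 in KO (SD, n = 5 and 3). Whether counting used strand is not given in the sources used here, so reads of both genes cannot be told apart.

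Hsd17b7 fell in all 4. It had 24.1, 20.9, 21.9, 20.4 and 21.8 CPM at E15.5 against 24.9, 26.6 and 26.8 CPM at E12.5 in KO, and 22.2, 21.6, 19.5, 22.8 and 18.2 CPM against 29.3, 26.5 and 23.3 CPM in C57BL/6 WT. In the FVBxBALB/c embryos it had 14.1, 18.4, 19.5 and 28.4 CPM against 37.4, 35.7, 35.03 and 36.3 CPM in Tg, and 21.3, 25.3, 17.03 and 20.3 CPM against 32.1, 26.5, 35.4 and 31.8 CPM in WT. No group overlapped between ages, though Tg replicate 4 at E15.5 lay far above the other Tg libraries of that age. Its log2 fold change was -0.22 (adjusted p = 0.0487, SE 0.09) in KO, kept under 4 of 16 alternatives, and -0.33 (adjusted p = 0.00629, SE 0.09) in C57BL/6 WT, lost without WT E12.5 replicate 1 (adjusted p = 0.0523). It was -0.85 (adjusted p = 0.000595, SE 0.17) in Tg and -0.58 (adjusted p = 0.00822, SE 0.17) in FVBxBALB/c WT, kept under every alternative. The difference of its WT age effect, FVBxBALB/c minus C57BL/6, was not called, at -0.24 (adjusted p = 0.853, SE 0.19).

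Dhcr7, the reductase of the last step to cholesterol, had 53.9, 55.4, 59.2, 60.1 and 57.1 CPM at E15.5 against 84.01, 63.3 and 68.8 CPM at E12.5 in KO, and 47.7, 53.4, 58.3, 62.2 and 56.4 CPM against 71.9, 66.3 and 66.2 CPM in C57BL/6 WT. FVBxBALB/c libraries showed 53.8, 46.1, 52.5 and 42.4 CPM against 51.7, 54.5, 63.5 and 58.003 CPM in Tg, and 46.4, 44.96, 52.8 and 51.99 CPM against 63.6, 60.2, 60.2 and 60.5 CPM in WT. The ages overlapped in Tg alone. On the log2 scale the change was -0.30 (adjusted p = 0.0113, SE 0.09) in KO, -0.27 (adjusted p = 0.0182, SE 0.09) in C57BL/6 WT, -0.22 (adjusted p = 0.0462, SE 0.09) in Tg and -0.32 (adjusted p = 0.00588, SE 0.09) in FVBxBALB/c WT. Without KO E12.5 replicate 1, the highest library of the gene, the KO value was -0.17 (adjusted p = 0.12). The C57BL/6 WT call was lost without WT E12.5 replicate 1 (adjusted p = 0.0725) and when replicate number was a block (adjusted p = 0.0604), and the Tg call was kept under 7 of 14 alternatives, being lost without Tg E12.5 replicate 2, 3 or 4 and without Tg E15.5 replicate 2 or 4.

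Msmo1 fell in 3 of the 4. It had 99.4, 97.2, 106, 111 and 104 CPM at E15.5 against 142, 126 and 134 CPM at E12.5 in KO, and 94.6, 93.3, 101, 101 and 108 CPM against 157, 119 and 132 CPM in C57BL/6 WT. In FVBxBALB/c it had 96.5, 100.1, 93.1 and 89.01 CPM against 115, 134, 129 and 133 CPM in Tg, and 104, 100.3, 109 and 106 CPM against 122, 115, 112 and 118 CPM in WT. Both ages were apart in all 4 groups, most narrowly in FVBxBALB/c WT. This gave log2 fold changes of -0.34 (adjusted p = 0.00228, SE 0.08) in KO, -0.43 (adjusted p = 0.000294, SE 0.08) in C57BL/6 WT and -0.43 (adjusted p = 5.05e-05, SE 0.06) in Tg, and -0.16 (adjusted p = 0.0533, SE 0.06) in FVBxBALB/c WT, where it was not called. Lss, the lanosterol synthase, fell in KO, with 51.02, 47.4, 45.8, 47.7 and 47.6 CPM at E15.5 against 64.6, 55.2 and 58.8 CPM at E12.5, and in FVBxBALB/c WT, with 40.5, 42.6, 35.6 and 41.1 CPM against 59.04, 48.3, 54.4 and 39.99 CPM. The ages were apart in KO and overlapped in FVBxBALB/c WT. The fold change was -0.28 (adjusted p = 0.00554, SE 0.08) in KO and -0.33 (adjusted p = 0.0231, SE 0.11) in FVBxBALB/c WT, a call lost without WT E12.5 replicate 1 or 3 or WT E15.5 replicate 3. Cyp51, the lanosterol demethylase, was called in FVBxBALB/c WT, with 184, 196, 199.7 and 206 CPM at E15.5 against 258, 209.9, 232 and 208 CPM at E12.5. The ages did not overlap, but the fold change of -0.21 (adjusted p = 0.0458, SE 0.08) was called under 6 of 14 alternatives, and leaving out any 1 of the 4 E15.5 libraries, or E12.5 replicate 1 or 3, ended the call. Sqle (squalene epoxidase), Nsdhl, Ebp and Sc5d, which act on squalene or late sterols, were called in none.

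Among regulators and carriers, Stard4, a soluble protein that moves sterol between membranes, fell in all 4. It had 28.3, 21.7, 28.9, 23.9 and 25.9 CPM at E15.5 against 55.5, 45.9 and 42.2 CPM at E12.5 in KO, and 25.96, 26.7, 24.1, 26.99 and 24.2 CPM against 61.4, 48.8 and 47.4 CPM in C57BL/6 WT. The FVBxBALB/c libraries had 24.5, 23.8, 29.8 and 33.2 CPM against 41.7, 52.02, 51.98 and 52.4 CPM in Tg, and 32.6, 31.2, 21.9 and 23.6 CPM against 42.1, 44.3, 51.4 and 45.02 CPM in WT. The ages were well apart in all groups. Log2 fold changes were -0.86 (adjusted p = 4.94e-06, SE 0.11) in KO, -1.02 (adjusted p = 9.32e-07, SE 0.11) in C57BL/6 WT, -0.83 (adjusted p = 0.000147, SE 0.14) in Tg and -0.74 (adjusted p = 0.000344, SE 0.14) in FVBxBALB/c WT, and all alternatives kept the calls.

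Srebf1 fell in KO, with 72.3, 68.2, 57.2, 62.8 and 60.8 CPM at E15.5 against 99.4, 73.7 and 81.5 CPM at E12.5, and in C57BL/6 WT, with 75.8, 68.9, 60.5, 71.4 and 66.98 CPM against 81.02, 90.04 and 90.2 CPM. It also fell in FVBxBALB/c WT, with 43.5, 43.99, 46.03 and 40.6 CPM against 56.8, 60.99, 68.1 and 57.2 CPM. In each the ages were apart. The log2 fold change was -0.36 (adjusted p = 0.00457, SE 0.10) in KO, -0.32 (adjusted p = 0.00986, SE 0.10) in C57BL/6 WT and -0.48 (adjusted p = 0.000911, SE 0.10) in FVBxBALB/c WT, and in Tg it was -0.17 (adjusted p = 0.19, SE 0.10), not called. The KO call rested on KO E12.5 replicate 1, the highest library, without which it was -0.24 (adjusted p = 0.0561). Srebf2 was called in none of the 4, at -0.05 (adjusted p = 0.656, SE 0.08) in KO, 0.00 (adjusted p = 0.999, SE 0.08) in C57BL/6 WT, -0.00 (adjusted p = 0.975, SE 0.08) in Tg and -0.11 (adjusted p = 0.268, SE 0.08) in FVBxBALB/c WT.

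Insig1 fell in KO, with 89.2, 79.04, 79.3, 75.4 and 73.1 CPM at E15.5 against 106, 90.2 and 100.4 CPM at E12.5, in C57BL/6 WT, with 85.4, 76.2, 69.9, 82.8 and 83.4 CPM against 88.7, 104 and 110.2 CPM, and in Tg, with 55.5, 55.7, 56.1 and 63.4 CPM against 66.4, 66.1, 77.1 and 72.9 CPM. No age overlapped in these groups. Its log2 fold change was -0.28 (adjusted p = 0.0117, SE 0.09) in KO, -0.33 (adjusted p = 0.0046, SE 0.09) in C57BL/6 WT, -0.29 (adjusted p = 0.00951, SE 0.08) in Tg and -0.20 (adjusted p = 0.0628, SE 0.08) in FVBxBALB/c WT, where it was not called. Without KO E12.5 replicate 1 the KO call was lost (adjusted p = 0.067).

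Of the 3 genes of fatty acid synthesis, 2 were called higher with age in KO and 1 lower in FVBxBALB/c WT. Acaca rose in KO, with 89.2, 80.4, 88.9, 91.2 and 81.9 CPM at E15.5 against 74.2, 67.6 and 64.3 CPM at E12.5, and so did Fasn, with 469.6, 409, 528, 500.3 and 474 CPM against 413, 339 and 305 CPM. E15.5 and E12.5 were apart for Acaca and touched for Fasn, where KO E15.5 replicate 2 lay below KO E12.5 replicate 1. The log2 fold change in KO was 0.37 (adjusted p = 0.000646, SE 0.08) for Acaca and 0.47 (adjusted p = 0.00393, SE 0.13) for Fasn, kept under all alternatives. In C57BL/6 WT they were not called, at 0.09 (adjusted p = 0.315, SE 0.08) and 0.26 (adjusted p = 0.0795, SE 0.12), and the change of the KO effect between the ages was called for neither gene. In Tg and FVBxBALB/c WT they were not called either, Fasn standing at 0.13 (adjusted p = 0.455, SE 0.14) in Tg and -0.28 (adjusted p = 0.0998, SE 0.14) in WT. Acaca shares 28.0% of its 66-base stretches with Gm5182 or Gm42553. Acly fell in FVBxBALB/c WT, with 517, 493, 469.5 and 499.97 CPM at E15.5 against 562, 531, 618 and 559.9 CPM at E12.5. Its ages were apart, the fold change was -0.20 (adjusted p = 0.018, SE 0.07), and the call was lost without WT E12.5 replicate 3 (adjusted p = 0.0656) and with the groups compared alone in the fit (adjusted p = 0.0677).

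Scd1, a desaturase, fell by the most of all members in 3 of the 4 groups, and in C57BL/6 WT Stard4 and Idi1 fell further. It had 29.8, 22.9, 30.6, 31.2 and 25.1 CPM at E15.5 against 62.6, 52.7 and 46.5 CPM at E12.5 in KO, and 26.3, 27.6, 22.9, 27.2 and 24.7 CPM against 61.4, 42.3 and 39.1 CPM in C57BL/6 WT. In the FVBxBALB/c embryos it had 16.7, 25.1, 21.2 and 19.9 CPM against 37.9, 35.1, 42.2 and 53.7 CPM in Tg, and 22.4, 25.8, 20.004 and 21.9 CPM against 42.96, 38.6, 63.2 and 43.99 CPM in WT. Both ages were apart in every group, and both C57BL/6 E12.5 replicates 1, which came from 1 litter, stood highest in their groups. Its log2 fold change was -0.91 (adjusted p = 3.1e-05, SE 0.14) in KO, -0.87 (adjusted p = 5.58e-05, SE 0.14) in C57BL/6 WT, -1.02 (adjusted p = 0.00012, SE 0.17) in Tg and -1.07 (adjusted p = 6.19e-05, SE 0.17) in FVBxBALB/c WT, and all alternatives kept the calls.

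Scd2, its close relative, fell by less. It had 1248, 1000.2, 1273, 1229 and 1194 CPM at E15.5 against 1763, 1409 and 1391 CPM at E12.5 in KO, and 1317, 1226, 1143, 1292 and 1156 CPM against 1697, 1473 and 1373 CPM in C57BL/6 WT. FVBxBALB/c libraries showed 948, 994, 1029 and 1026 CPM against 1297, 1160.4, 1350.3 and 1329 CPM in Tg, and 1003, 962, 906 and 1052 CPM against 1299, 1263, 1490.2 and 1238 CPM in WT. The ages were apart in all 4. On the log2 scale the change was -0.32 (adjusted p = 0.0123, SE 0.10) in KO, -0.29 (adjusted p = 0.0228, SE 0.10) in C57BL/6 WT, -0.36 (adjusted p = 0.00142, SE 0.08) in Tg and -0.43 (adjusted p = 0.000256, SE 0.08) in FVBxBALB/c WT. In KO the value without KO E12.5 replicate 1 was -0.20 (adjusted p = 0.119), and the C57BL/6 WT call was lost when replicate number was a block (adjusted p = 0.0621), without WT E12.5 replicate 1 (adjusted p = 0.144), without WT E15.5 replicate 3 (adjusted p = 0.0519) and without both E15.5 replicates 5 (adjusted p = 0.0604). Per kilobase, Scd2 exceeded Scd1 by a median ratio of 37.2 at E15.5 and 24.99 at E12.5 in KO, 42.15 and 30.9 in C57BL/6 WT, 44.4 and 28.9 in Tg, and 39.9 and 25.9 in FVBxBALB/c WT. The lowest ratio at E15.5 (33.1) lay above the highest at E12.5 (31.15). Of the 66-base stretches, 3.42% of those of Scd1 and 2.2% of those of Scd2 occur in another Scd gene.

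Elovl5, an elongase of polyunsaturated fatty acids, had 84.5, 82.1, 83.002, 78.4 and 87.03 CPM at E15.5 against 116, 108 and 94.9 CPM at E12.5 in KO, and 88.6, 82.2, 85.3, 85.5 and 79.02 CPM against 130.4, 96.96 and 94.5 CPM in C57BL/6 WT. In FVBxBALB/c it had 98.2, 93.4, 86.2 and 98.3 CPM against 105, 118, 113 and 116 CPM in Tg, and 96.6, 94.99, 93.9 and 94.9 CPM against 114, 119, 119 and 117 CPM in WT. E15.5 and E12.5 were apart, with WT E12.5 replicate 1 of C57BL/6 far above its group. This gave log2 fold changes of -0.32 (adjusted p = 0.00754, SE 0.09) in KO, -0.33 (adjusted p = 0.00557, SE 0.09) in C57BL/6 WT, -0.26 (adjusted p = 0.00227, SE 0.06) in Tg and -0.30 (adjusted p = 0.000649, SE 0.06) in FVBxBALB/c WT. Without that WT library the C57BL/6 WT value was -0.17 (adjusted p = 0.0747), and without KO E12.5 replicate 1 the KO value was -0.25 (adjusted p = 0.0517). Elovl6, an elongase of saturated fatty acids, Fads1 and Fads2 were called in none.

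**Figure D4:**
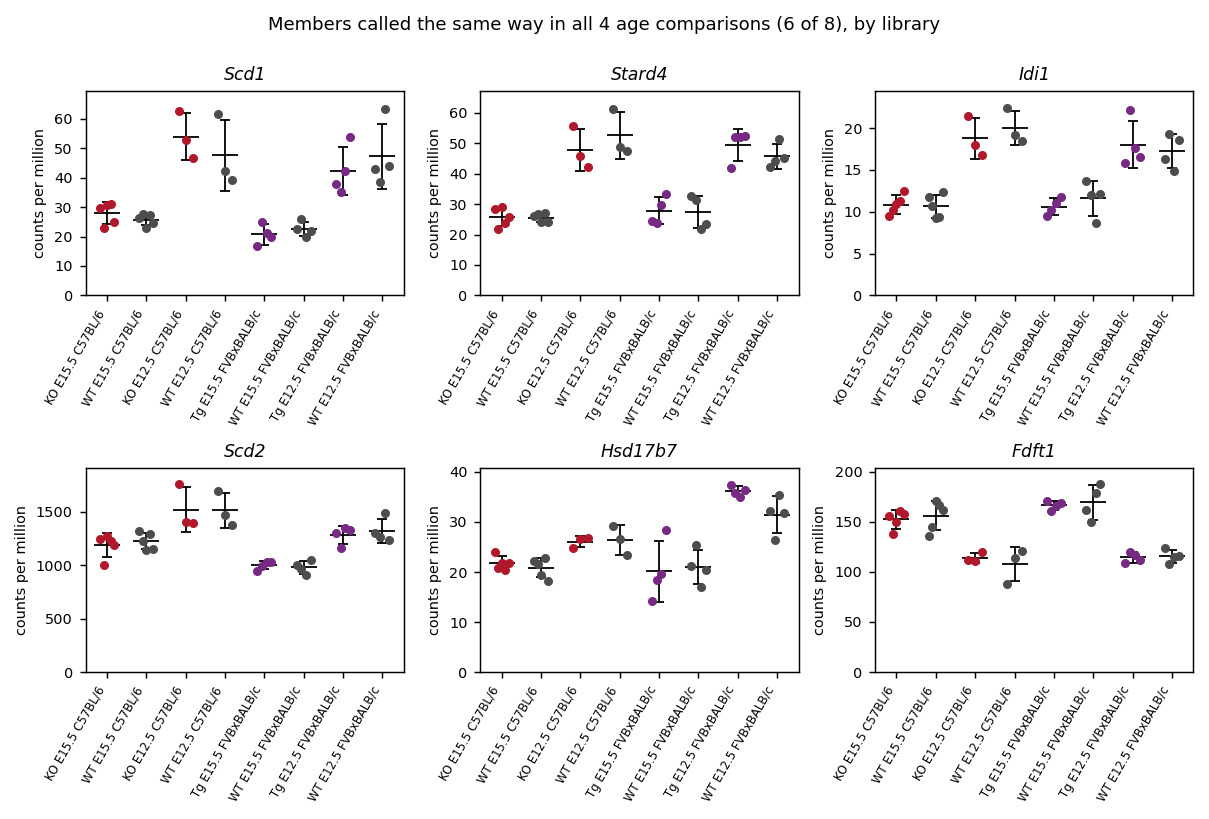
CPM of Scd1, Stard4, Idi1, Scd2, Hsd17b7 and Fdft1 in each library (points), with group mean and SD (bars), for E15.5 left of E12.5 and KO or Tg left of WT in each background. The E15.5 and E12.5 points do not overlap in any panel within a genotype and background, and Fdft1 alone is higher at E15.5.

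Leaving out 1 library mattered most in KO. Without KO E12.5 replicate 1, 8 members were called with age in KO (3 higher, 5 lower) where 16 were called with it. Of all genes 25.5% were then higher and 22.7% lower. The calls lost then were Acat2, Mvd, Hsd17b7, Dhcr7, Srebf1, Insig1, Elovl5 and Scd2, and those of Idi1, Fdft1, Lss, Msmo1, Stard4, Acaca, Fasn and Scd1 stayed. Without KO E15.5 replicates 3 and 4 there were 14 calls (3 higher, 11 lower), beside 26.5% of all genes higher and 24.9% lower. The E12.5 libraries of C57BL/6 came from 2 litters, replicate 1 of KO and WT from 1 and replicates 3 and 4 of both from the other, so without replicate 1 a group held a single litter. On the log2(CPM + 1) scale, the median deviation of neuron markers from the mean of that age and background was -0.37 in KO and -0.68 in WT replicate 1, and -0.03 to 0.60 in the other 4 libraries. Proliferation markers deviated by 0.13 in KO and 0.21 in WT replicate 1, and by -0.24 to -0.02 in the others. Erythroid markers deviated by 0.39 in KO and 0.63 in WT replicate 1, and by -1.10 to 0.39 in the others. The part of litter and of these markers in the calls was not tested.

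Other genes of the pathways moved in both directions with age, as all genes tested did. Of all genes, 29.4% were higher and 27.0% lower in KO, and 28.6% and 28.2% in C57BL/6 WT. In Tg 23.8% were higher and 22.5% lower, and in FVBxBALB/c WT 25.1% in each direction. Differences of the lists below from these shares were not tested. Among 17 tested genes of sterol synthesis and SREBP control outside the members, 7 were higher and 7 lower in KO and likewise in C57BL/6 WT, 5 and 6 in Tg, and 6 and 6 in FVBxBALB/c WT. Lbr, a sterol reductase of the nuclear envelope, fell by 1.44 on the log2 scale in C57BL/6 WT and by 1.03 in FVBxBALB/c WT. Of 17 genes of sterol efflux, storage and LXR, 7 were higher and 3 lower in KO, 7 and 2 in C57BL/6 WT, 8 and 3 in Tg, and 5 and 4 in FVBxBALB/c WT. The oxysterol-binding proteins Osbpl5 and Osbpl6 rose by 0.91 and 0.96 in C57BL/6 WT and by 0.74 and 0.72 in FVBxBALB/c WT, and Cyp27a1, the sterol 27-hydroxylase, fell by 2.86 in C57BL/6 WT and by 3.09 in FVBxBALB/c WT. Of the other fatty acid genes, 10 were higher and 5 lower of 27 in KO and in C57BL/6 WT, and 8 and 4 of 26 in Tg and 8 and 6 of 26 in FVBxBALB/c WT. Thrsp, a lipogenic factor, rose by 3.54 in C57BL/6 WT and by 2.95 in FVBxBALB/c WT, and Me1, the malic enzyme that supplies NADPH, by 0.86 and 0.96. No gene of these 3 lists was called between genotypes by edgeR's quasi-likelihood test.

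The backgrounds differed in the regulators. In WT at E15.5, 8 members were lower and 3 higher in FVBxBALB/c than in C57BL/6, beside 11.3% lower and 13.9% higher of the 16399 genes tested. In WT at E12.5, 3 members were lower and 0 higher, beside 7.19% and 5.59% of all genes. By DESeq2 4 were lower and 0 higher, beside 5.17% and 4.16% of all 26331 named genes, which include those the filter removed. By edgeR 8 members (25.8%) lay at an unadjusted p under 0.05 in either direction, beside 26.2% of all genes. Background and sequencing batch cannot be told apart in these values.

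Srebf1 had 43.5, 43.99, 46.03 and 40.6 CPM in FVBxBALB/c against 75.8, 68.9, 60.5, 71.4 and 66.98 CPM in C57BL/6 at E15.5, and 56.8, 60.99, 68.1 and 57.2 CPM against 81.02, 90.04 and 90.2 CPM at E12.5. Srebf2 had 238, 227, 228 and 238 CPM against 342, 317, 302, 373 and 345 CPM at E15.5, and 256, 236, 282 and 229.9 CPM against 306, 358 and 357 CPM at E12.5. For Insig1 the values were 64.3, 60.3, 58.004 and 51.6 CPM against 85.4, 76.2, 69.9, 82.8 and 83.4 CPM at E15.5, and 71.5, 67.4, 64.4 and 64.9 CPM against 88.7, 104 and 110.2 CPM at E12.5. Every FVBxBALB/c library lay below every C57BL/6 library for all 3 genes at both ages. By edgeR's quasi-likelihood test with Benjamini-Hochberg adjustment, the log2 fold change at E15.5 and E12.5 was -0.66 (adjusted p = 1.8e-05, SE 0.10) and -0.52 (adjusted p = 0.00169, SE 0.11) for Srebf1, -0.53 (adjusted p = 8.55e-06, SE 0.08) and -0.44 (adjusted p = 0.000755, SE 0.08) for Srebf2, and -0.44 (adjusted p = 0.000169, SE 0.08) and -0.59 (adjusted p = 2.96e-05, SE 0.09) for Insig1. With only the groups compared in the fit, 1 member was called at E12.5: Srebf1 and Srebf2 then had adjusted p values of 0.0543 and 0.115. In that fit 0.77% of all genes were called lower and 0.511% higher. Srebf1 overlaps Rai1 over 2.54% of its exon bases on the opposite strand, and Rai1 stood at -0.50 at E15.5.

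Fasn had 326, 296, 304 and 391 CPM in FVBxBALB/c against 487, 481, 398, 507 and 485 CPM in C57BL/6 at E15.5, with log2 fold change -0.52 (adjusted p = 0.00322, SE 0.13). Scd2 had 1003, 962, 906 and 1052 CPM against 1317, 1226, 1143, 1292 and 1156 CPM, with -0.32 (adjusted p = 0.00508, SE 0.08), and Fads2 131, 141, 157 and 147 CPM against 182, 176, 192, 192 and 179 CPM, with -0.36 (adjusted p = 0.00226, SE 0.08). None of these 3 genes of fatty acids overlapped between the backgrounds. Lss had 40.5, 42.6, 35.6 and 41.1 CPM against 52.4, 48.96, 47.3, 51.2 and 45.8 CPM, with -0.30 (adjusted p = 0.0196, SE 0.09), a call lost without FVBxBALB/c replicate 3 (adjusted p = 0.0741). Sqle had 190.2, 178, 182 and 216 CPM against 212, 204, 229, 212 and 232 CPM, overlapping, with -0.19 (adjusted p = 0.0325, SE 0.06). The Sqle call was kept under 9 of 15 alternatives and was lost without FVBxBALB/c replicate 1, 2 or 3 or C57BL/6 replicate 3 or 5.

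The 3 members higher in FVBxBALB/c at E15.5 came from the early and late steps. Acat2 had 142, 131, 148 and 159 CPM in FVBxBALB/c against 95.3, 115, 124, 127 and 114 CPM in C57BL/6, with 0.33 (adjusted p = 0.00353, SE 0.08). Hmgcs1 had 784, 734, 734 and 841 CPM against 664, 644, 679, 622 and 588 CPM, with 0.27 (adjusted p = 0.0123, SE 0.08). Both were apart between the backgrounds. Nsdhl, a dehydrogenase of sterol demethylation, had 57.9, 54.97, 64.3 and 68.2 CPM against 49.6, 49.4, 56.4, 54.1 and 47.04 CPM, overlapping, with 0.26 (adjusted p = 0.00849, SE 0.07). In all, 10 members did not overlap at E15.5, where 24.8% of all genes did not, and 5 at E12.5, where 14.7% did not.

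**Figure D5:**
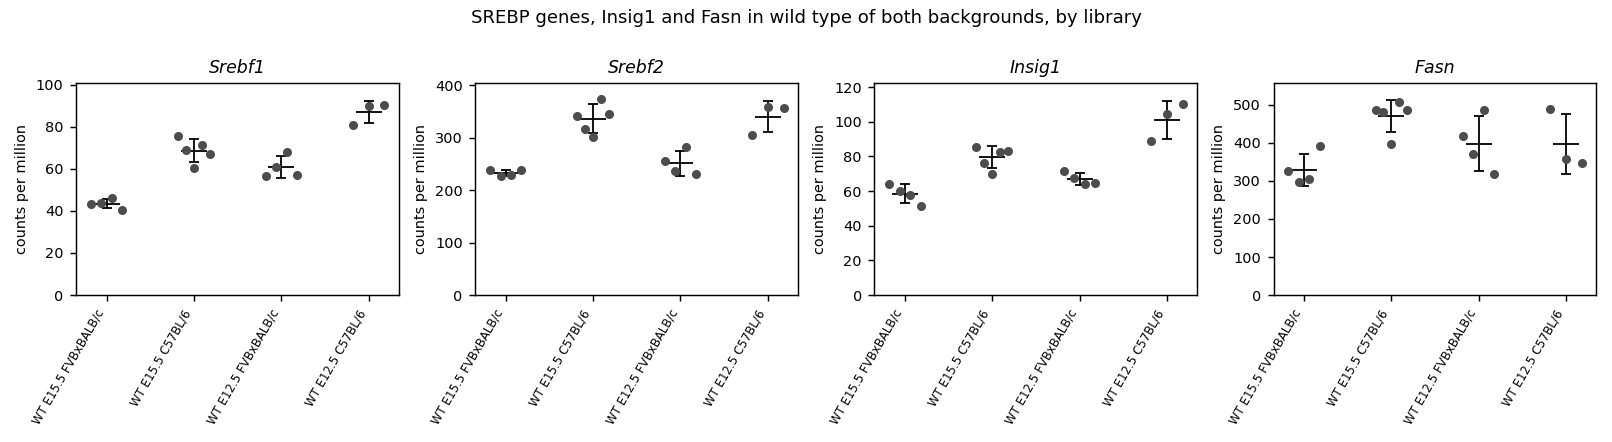
CPM of Srebf1, Srebf2, Insig1 and Fasn in each WT library (points), with group mean and SD (bars), FVBxBALB/c left of C57BL/6 at each age. Srebf1, Srebf2 and Insig1 are lower in FVBxBALB/c with no overlap at both ages, while Fasn is apart at E15.5 and overlaps at E12.5.

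Whether the WT age effect itself differed between the backgrounds was tested in the fit of all 32 libraries, a comparison added after the data were seen. It was called for 0 of 31 members by edgeR, beside 0.0305% of all genes. DESeq2 also called 0 members, beside 0.019% of all genes higher and 0.0418% lower. By edgeR 3 members lay at an unadjusted p under 0.05, beside 6.62% of all genes. Msmo1 had the smallest p, with a difference of log2 fold changes, FVBxBALB/c minus C57BL/6, of 0.29 (adjusted p = 0.63, SE 0.10). Fasn stood at -0.52 (adjusted p = 0.639, SE 0.19) and Fads2 at -0.28 (adjusted p = 0.722, SE 0.13). The 95% interval of this difference lay within 1.5-fold for 25 of 31 members.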

How the data were processed

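The deposited values are raw counts of reads per gene, 1 table per library, with no normalization by the authors. Per the submitters' processing notes, bcl2fastq and featureCounts were used with the mm10 genome; of the aligner, the annotation, the strand setting and software versions each was not given in the sources used here. Per the labels' protocols, total RNA (RNeasy, TruSeq RNA prep kit v2) was read as paired ends of 66 bp on a NextSeq500. Each table had 27179 rows, of which 848 named no gene and held 0.3054% to 2.0017% of counts; these were left out.

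From these counts, genes with too few reads were removed with filterByExpr (minimum count 10, minimum total 15), leaving 16118 genes in C57BL/6, 15556 in FVBxBALB/c and 16399 over all 32 libraries. Scaling used the trimmed mean of M values. A quasi-likelihood model with group means was fitted in each background (edgeR 4.0.16, limma 3.58.1, R 4.3.3; 12 residual degrees of freedom), and another over all 32 libraries for the background comparisons (24 degrees of freedom). Tests were 2-sided, and p was adjusted by Benjamini-Hochberg over all genes tested. A gene was called at an adjusted p below 0.05. The SE was worked back from the F value and the size of the log2 fold change. CPM uses scaled library sizes of all 32 libraries, and CPM per kb the gene length in the tables. Intervals are at 95% and cover the spread that the model fits; reads carry no molecular identifiers. The procedure was tested on simulated data. DESeq2 1.42.0 was the alternative test; other alternatives were median-of-ratios scaling, no filter, other libraries in the fit, replicate and litter blocks and leaving libraries out.

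Members, gene lists and the rule for named genes (all called members, up to 8 per direction, or the 3 with the smallest p) were chosen with earlier results of these data known; values of some further called members were added. Litters are labelled in C57BL/6 only: each E15.5 replicate number is 1 litter shared by KO and WT, while at E12.5 replicates 1 share 1 litter and replicates 3 and 4 of both genotypes another. The tests with age treat the 3 E12.5 libraries of a genotype as separate samples. Deviations from the group mean were correlated between KO and WT libraries of the same replicate number. That correlation ran from -0.1884 to 0.4097 at E15.5 and from -0.4574 to 0.4439 at E12.5. In FVBxBALB/c litter and embryo are not given, so p-values there measure the spread between libraries, which may be technical. Exon overlaps come from GENCODE and shared stretches from its transcripts, which need not be the annotation the authors used. Sequences came from RefSeq for 24 of 31 members, and none was printed for the others. Every sample was mapped to a group by its labels. Single values of some genes of the wider pathway lists are not reported here.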

Additional observations from a re-analysis of the deposited data

Results flagged for a closer look

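In groups of 4 or 5 libraries, 8 of 186 sets of member values had 1 library apart from the rest by Dixon's criterion at 95%; chance alone sets about 1 in 20 groups apart. In labelled KO cortex, Sqle had 191.4 CPM in replicate 2 and 224 to 233.3 CPM in the other libraries. In C57BL/6 WT cortex, Fasn had 398.1 CPM in replicate 3 and 480.5 to 506.8 CPM in the others. In Tg at E15.5, replicate 4 stood apart for Insig1, at 63.4 CPM against 55.46 to 56.09 CPM in the others, and for Elovl6, at 133.8 CPM against 108.7 to 112.5 CPM. In Tg at E12.5, Ggps1 had 53.83 CPM in replicate 2 against 58.73 to 59.72 CPM in the others. In replicate 1 of that group Sc5d had 53.49 CPM against 44.38 to 45.65 CPM, and Stard4 had 41.73 CPM against 51.98 to 52.4 CPM. In FVBxBALB/c WT at E12.5, Dhcr7 had 63.65 CPM in replicate 1 and 60.24 to 60.49 CPM in the others.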

How the results depend on the processing

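All alternatives run kept 0 calls of members in the 4 genotype comparisons, in both differences of a genotype effect between ages and in the difference of the WT age effect between backgrounds. Leaving out each library in turn gave 8 to 16 members called with age in KO and 11 to 17 in C57BL/6 WT. It gave 9 to 12 in Tg and 10 to 16 in FVBxBALB/c WT. Of all genes, 19.2% to 27% were then lower with age and 20.7% to 28.9% higher. Between the backgrounds 10 to 13 members were called at E15.5, beside 7.8% to 11.1% of all genes lower and 9.99% to 13.6% higher. At E12.5 these were 3 to 4 members, beside 3.02% to 11% lower and 2.14% to 9.37% higher. With only the groups compared in the fit, 1 member was called between the backgrounds at E12.5, where the other settings gave 3 or 4. The share of all genes called dropped as well, to 0.77% lower and 0.511% higher, from 7.19% and 5.59% in the main fit. The cause was not tested. No named member changed direction while called. With a replicate block, 0 members were called between genotypes, 15 with age in KO, 13 in C57BL/6 WT, 11 in Tg and 12 in FVBxBALB/c WT, and 11 and 3 between the backgrounds at E15.5 and E12.5; a litter block in C57BL/6 also gave 0 calls between genotypes. That replicate block ended the age calls of Mvd and Hsd17b7 in KO, Dhcr7 and Scd2 in C57BL/6 WT and Cyp51 in FVBxBALB/c WT. With it 24.9%, 25.6%, 22.1% and 24.6% of all genes were lower with age in KO, C57BL/6 WT, Tg and FVBxBALB/c WT. Higher were 28.3%, 27.2%, 23.7% and 25.1%. Between the backgrounds 10.3% were lower and 13.5% higher at E15.5, and 6.83% and 5.08% at E12.5. Replicate numbers mark shared litters between KO and WT at E15.5; at E12.5 in C57BL/6 replicates 3 and 4 are of 1 litter, and across ages and backgrounds they are only numbers. In FVBxBALB/c the correlation of same-numbered libraries ran from -0.2337 to 0.6697, and not every library matched its own number best. DESeq2 called 16, 14, 12 and 15 members with age in KO, C57BL/6 WT, Tg and FVBxBALB/c WT. In that order 38.7%, 38.7%, 35.5% and 41.9% of members were lower, beside 17.3%, 17.7%, 14.4% and 15.9% of all 26331 genes. Higher were 12.9%, 6.45%, 3.23% and 6.45% of members, beside 18%, 17.6%, 14.3% and 15% of all genes. Genes without an adjusted p counted as not called. The 26331 include genes that the filter removed, while every member passed it, so these shares are not like for like. Over the genes kept by the filter, edgeR called 27.0%, 28.2%, 22.5% and 25.1% lower and 29.4%, 28.6%, 23.8% and 25.1% higher. Another scaling moved the median of all genes by less than 0.1 on the log2 scale. Depth limits Ebp most, with 71 reads in its lowest library, and no difference within a member's 95% interval is shown to be absent.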
